A study of Homo sapiens with 22 samples.

Results

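The genes described here are 34 interferon-stimulated genes, chosen by name, in 11 established B-cell lymphoma cell lines that were grown without drug or with aza and TSA. An element of the array annotated to a single gene symbol was found for 33 of them, among 15461 genes with such an element and 32878 elements in all, and STAT2 is not analysed here. IFITM3, OAS1, OAS2 and USP18 have several elements, and the brightest on average over the 22 arrays stands for each gene. Each line gave 1 untreated culture and 1 culture treated with both agents (aza/TSA). According to the labels, growth lasted 72 h with aza added every 24 h and TSA added for the last 12 h, and the methods give doses of 1 µM aza and 0.5 µM TSA. Aza (5-aza-2'-deoxycytidine) inhibits DNA methyltransferases and TSA (trichostatin A) inhibits histone deacetylases; no culture received either agent alone, so that their shares in a change cannot be told apart. By the study's methods, Raji, Ramos and BL41 are Burkitt lymphoma (BL) lines, HLY-1, Ocily3 and Ocily10 are diffuse large B-cell lymphomas (DLBCL) of activated B-cell-like type (DLBCL ABC), Sudhl4 and Sudhl6 of germinal center type (DLBCL GCB), and K422, SC-1 and ROS-50 are follicular lymphoma (FL) lines. Ocily3 and Ocily10 grew in IMDM and the other lines in RPMI medium. The lines are the replicates (n = 11), a line has no replicate of its own, and their number limits the precision.

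Interferons are cytokines that cells release when they sense viral nucleic acids. Type I interferons bind the receptor IFNAR, whose JAK kinases phosphorylate STAT proteins, and a complex that holds STAT2 and IRF9 then binds a promoter sequence called the interferon-stimulated response element (ISRE). The induced genes encode antiviral effectors, sensors that detect viral RNA, and regulators such as IRF7, which amplifies the production of interferon. In textbook accounts, drugs that inhibit DNA methyltransferases can release transcripts of endogenous retroviruses that these sensors recognize; such transcripts were not measured here.

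All values are log2 of the normalized array signal. Every array has a median of 10.18 on that scale and quartiles of 8.73 and 12.78, so that a level near or below the median is a dim signal. Raw signals of HLY-1, Ocily10 and Sudhl4 tended to be dimmer than those of the other lines, with a 75th percentile of 2901 to 4547 against 4310 to 15058, ranges that overlap. B-cell markers (MS4A1, CD79A and others) were at a mean level of 11.1 to 15.1 per untreated array, and T and NK cell markers at 8.69 to 10.1. The untreated mean was above the array median for 8 of 9 B-cell markers, the exception being PAX5 (9.05). Among 12 T and NK cell markers it was above for 1, NKG7 (12.8), and the highest untreated levels of CD3D and CD3G were 16.4 and 15.7.

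After aza/TSA 11 of the 33 interferon-stimulated genes were higher than in the untreated cultures, and 2 were lower. The genes that rose were IFI6, OASL, IRF7, IFIT1, ISG15, IFIT2, IFI27, IFI44, HERC5, DHX58 and XAF1, and those that fell were OAS2 and ISG20. The calls come from limma, which compared both cultures of each line, at a Benjamini-Hochberg adjusted p under 0.05 over all elements. By the same rule 11.2% of all elements were higher and 12.4% lower, against 33.3% and 6.06% of the interferon-stimulated genes. The median mean difference of the list was 0.50 on the log2 scale, against -0.03 over all elements. Of the 20 genes that did not pass the test, 12 had a higher and 8 a lower mean after treatment. The treatment changed many elements on these arrays, and their balance depends on the scaling: 3674 elements were called higher and 4064 lower as deposited, 2603 and 5637 when arrays were scaled to a common median instead, which moved the median of all elements to -0.15 and that of the list to 0.39.

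The study chose candidate genes that were higher by 2-fold or more in no fewer than 6 of 11 lines, and 11 of the 33 genes met this rule, against 6.52% of all elements. These were the called genes without XAF1, which reached 2-fold in 5 lines, and with IFITM1, which did so in 7. The opposite rule was met by OAS2 alone, against 5.80% of all elements. IFI6, IRF7 and IFIT1 were higher in all 11 lines (5.46% of elements were), ISG20 was lower in all 11 (6.15%), and IFI6 was at least 2-fold higher in every line (0.721%). For none of the 33 genes did all treated levels lie above all untreated levels, or all below (0.627% and 0.642% of elements).

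**Figure D1:**
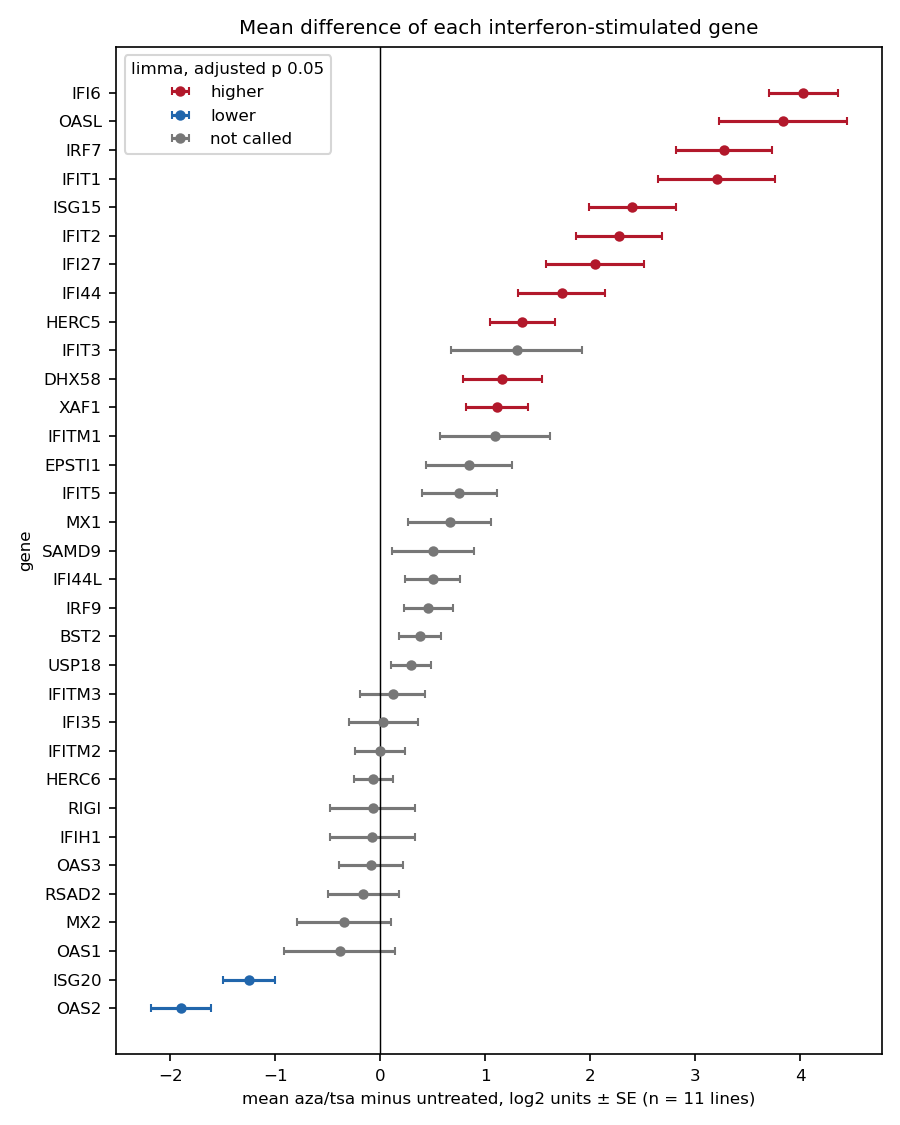
Mean difference between aza/TSA-treated and untreated cultures (log2, horizontal axis) with its standard error over 11 lines, for 33 interferon-stimulated genes, coloured by the limma call. IFI6 stands farthest to the right at 4.03 and OAS2 farthest to the left at -1.90; 11 genes were called higher and 2 lower.

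IFI6, which encodes an interferon-induced mitochondrial protein that protects cells from apoptosis, had the largest mean increase. Its level over the untreated cultures was 8.12 at the lowest (ROS-50), 10.10 at the median and 14.44 at the highest (K422), and over the treated cultures 11.27 (ROS-50), 14.58 and 18.72 (K422). ROS-50 was thus the lowest and K422 the highest line in both groups, 6 of 11 treated cultures lay above the highest untreated culture, and the difference ran from 2.27 in Ocily3 to 7.06 in Raji. The mean difference was 4.03 ± 0.33 (log2, SE, n = 11), a 16.4-fold change (limma, adjusted p = 2.33e-06). IFI27, the gene of a related small membrane protein, rose by 2.04 ± 0.47 (adjusted p = 0.00512), with the smallest difference in ROS-50 (-0.54) and the largest in K422 (4.75).

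Among the regulators, IRF7 rose in every line. Untreated levels of IRF7 were 8.43 at the lowest (Sudhl4), 10.62 at the median and 13.88 at the highest (Ocily10), and treated levels were 12.97 (Ocily3), 14.01 and 16.24 (Raji). The treated cultures were closer to each other than the untreated ones, with SDs of 0.90 and 1.61, and the line with the highest untreated level, Ocily10, had the smallest difference (0.53), against 5.86 in Raji. The untreated level is subtracted in each difference, so a line picked by that level does not give an independent difference, here and below. The mean difference was 3.27 ± 0.46, 9.68-fold (adjusted p = 1.30e-04). IRF9, the DNA-binding subunit of the complex that carries the interferon signal, was at 12.90 untreated and 13.36 treated and did not pass the test (0.46 ± 0.24, adjusted p = 0.192), with differences from -0.30 in Ocily3 to a maximum in Raji, the only line besides BL41 with a 2-fold difference.

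OASL, an oligoadenylate synthetase-like protein without the synthetase activity of its relatives, showed the clearest separation of the groups. Its untreated levels were 7.96 at the lowest (SC-1), 9.82 at the median and 11.18 at the highest (HLY-1), and its treated levels were 8.42 (ROS-50), 13.73 and 16.56 (Raji). All treated cultures but that of ROS-50 lay above the highest untreated culture; in ROS-50 OASL was lower after treatment by 2.04, and in the other lines higher by 2.41 (Sudhl4) to 7.67 (Raji). The mean difference was 3.84 ± 0.61, 14.3-fold (adjusted p = 3.72e-04).

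The oligoadenylate synthetases proper make a second messenger that activates the antiviral ribonuclease RNase L, and they did not follow OASL. OAS2 ranged from 11.36 (Ocily3) over a median of 13.13 to 15.22 (HLY-1) in untreated cultures, and from 8.64 (Sudhl4) over 11.28 to 13.93 (Raji) in treated cultures. It was lower by 2-fold or more in 10 of 11 lines and 0.41 higher in Raji, a mean of -1.90 ± 0.29 (adjusted p = 2.44e-04), and its second element fell too (-1.30 ± 0.34, adjusted p = 0.0133). OAS1 had untreated levels of 9.16 (SC-1), 12.51 at the median and 16.93 (Ocily10), and treated levels of 7.60 (BL41), 13.37 and 15.56 (Ocily10). Its differences opposed each other, from -4.43 in BL41 and -2.36 in Sudhl6 to 2.05 in Raji and 2.89 in SC-1, with a mean of -0.39 ± 0.53 (adjusted p = 0.667). The second OAS1 element was about as bright (means 12.94 and 12.71) and had a narrower range, from -2.25 to 1.71. Its mean difference was -0.23 ± 0.38 (adjusted p = 0.731). OAS3 was dim in both groups, at means of 9.14 and 9.05 (adjusted p = 0.875).

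The IFIT proteins bind foreign RNA and block its translation, and within the family IFIT1 and IFIT2 rose while IFIT3 and IFIT5 did not pass the test. IFIT1 had untreated levels of 8.53 at the lowest (Ocily10), 9.48 at the median and 13.04 at the highest (K422), and treated levels of 9.52 (Ocily3), 13.88 and 17.17 (Raji). It was higher in all 11 lines, by 0.63 in Ocily3 to 7.12 in Raji, a mean of 3.20 ± 0.56 or 9.22-fold (adjusted p = 7.38e-04). In K422, where the untreated level was highest, the difference was 0.84.

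IFIT2 ran from 7.58 (Sudhl4) over 9.32 to 11.21 (Raji) untreated and from 9.07 (BL41) over 11.62 to 16.20 (Raji) treated, a mean difference of 2.27 ± 0.41 (adjusted p = 0.00101). Only BL41 had a lower level after treatment (-0.25). IFIT3 had the widest spread of differences of all 33 genes (SD 2.38). Its untreated levels were 8.18 (Ocily3), 8.89 at the median and 12.76 (K422), and its treated levels 9.03 (Ocily3), 9.87 and 15.37 (Raji). Differences of 5.74 in HLY-1 and 5.43 in Raji stood far above the other lines, which lay between -2.33 (BL41) and 1.42 (Ocily10), and the mean of 1.30 ± 0.62 did not pass (adjusted p = 0.161). IFIT5 had a mean difference of 0.75 ± 0.36 (adjusted p = 0.160) and its largest difference in Raji (3.49).

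**Figure D2:**
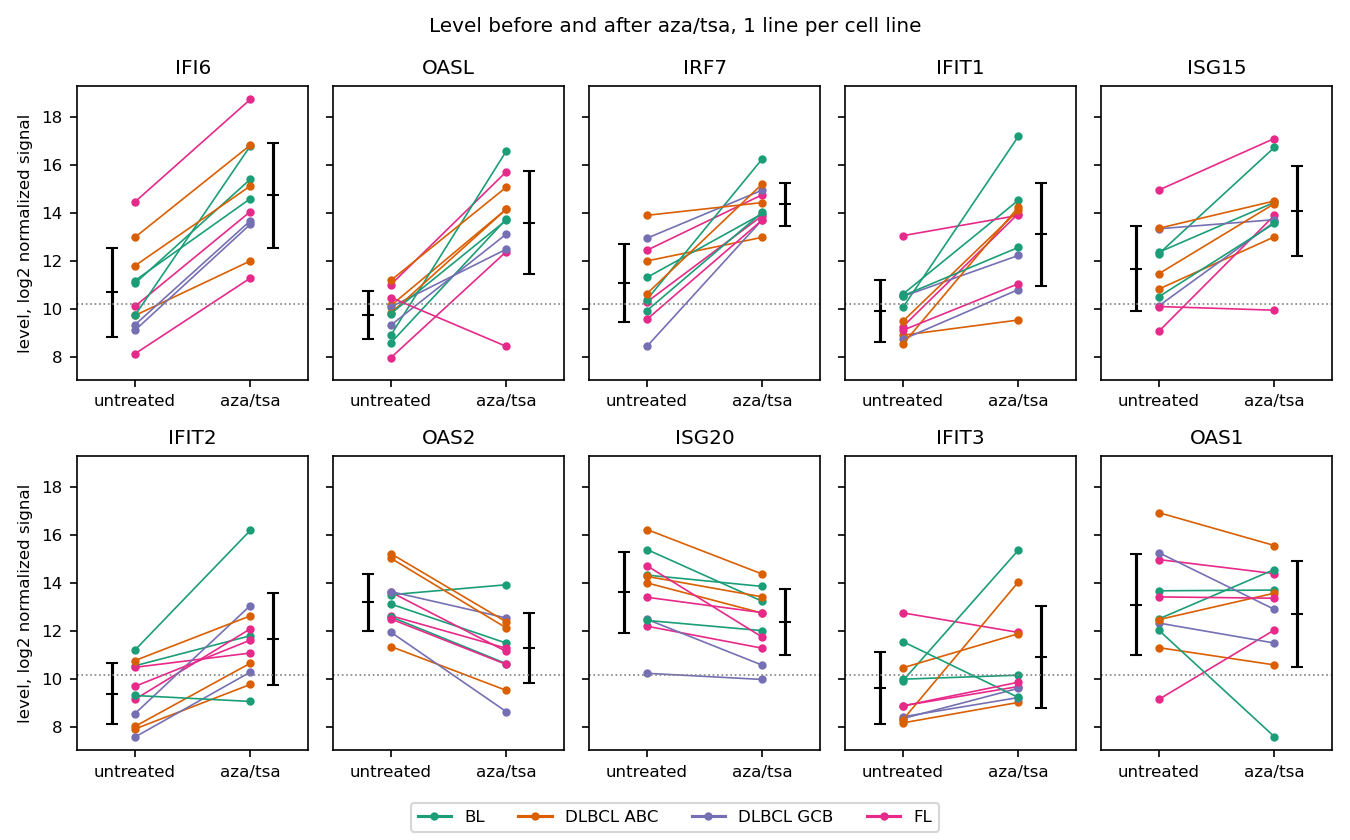
Log2 level of 10 interferon-stimulated genes in the untreated and the aza/TSA-treated culture of each line, joined by a line coloured by lymphoma type, with the mean and SD of each group (n = 11) and a dotted line at the array median of 10.18. IFI6, IRF7 and IFIT1 are higher in every treated culture, OASL in all but that of ROS-50, OAS2 is lower in all but that of Raji, and IFIT3 and OAS1 have differences of both signs.

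ISG15, a ubiquitin-like protein that is attached to other proteins, and enzymes of its cycle were measured together. ISG15 had untreated levels of 9.06 (SC-1), 11.46 at the median and 14.94 (K422), and treated levels of 9.93 (ROS-50), 13.88 and 17.08 (K422). It was higher in all lines but ROS-50 (-0.15), with the largest difference in SC-1 (4.82) and a mean of 2.40 ± 0.42 or 5.29-fold (adjusted p = 7.03e-04). HERC5, the main ligase that attaches ISG15 in human cells, rose by 1.35 ± 0.31 (adjusted p = 0.00502). It was dim in both groups (means 8.02 and 9.37), and 3 of 11 treated cultures were above the array median. Its neighbour HERC6 did not pass the test (-0.06 ± 0.19, adjusted p = 0.857).

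USP18 removes ISG15 and dampens the interferon receptor, and its 3 elements gave different answers. The element with the highest mean, which stands for the gene, had a difference of 0.29 ± 0.19 (adjusted p = 0.324). A second element rose from a mean of 10.32 to 12.95, by 2.63 ± 0.48 (adjusted p = 0.00115), and was higher in 11 of 11 lines, by 0.31 to 6.82. The remaining element was dim and had a difference of 0.31 (adjusted p = 0.534), so that the call for USP18 depends on the element.

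ISG20, an exonuclease that degrades RNA, went the other way. Its untreated levels were 10.24 (Sudhl6), 14.01 at the median and 16.23 (HLY-1), and its treated levels 9.98 (Sudhl6), 12.75 and 14.37 (HLY-1). It was lower in every line, by as little as 0.26 in Sudhl6 and as much as 2.97 in ROS-50, a mean of -1.25 ± 0.25 (adjusted p = 0.00198).

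Of the sensors of viral RNA, DHX58 (LGP2) rose from a median level of 8.64 to 10.34, with a mean difference of 1.16 ± 0.38 (adjusted p = 0.0370), and this call was lost when SC-1, Raji, Sudhl6, Sudhl4, BL41 or ROS-50 was left out (adjusted p between 0.0637 and 0.0802). RIGI was close to its untreated mean (11.83 and 11.76, adjusted p = 0.929), although in Raji it was higher by 4.17, where every other line lay between -1.19 and 0.25. IFIH1 (MDA5) had differences from -3.26 in BL41 to 1.86 in K422 and a mean of -0.07 ± 0.40 (adjusted p = 0.925).

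The remaining effectors mostly did not pass the test. IFI44, a cytoplasmic protein of less defined function, rose by 1.73 ± 0.41 (adjusted p = 0.00712), and XAF1, which antagonizes an inhibitor of apoptosis, by 1.11 ± 0.30 (adjusted p = 0.0135). The IFI44 call was lost without HLY-1, Ocily10 and Sudhl4 (1.38, adjusted p = 0.0582), as was that of DHX58 (1.30, adjusted p = 0.0720), and no other call of the 33 genes changed without these lines. The GTPase genes MX1 (0.66 ± 0.40, adjusted p = 0.271) and MX2 (-0.35 ± 0.45, adjusted p = 0.647) had differences of both signs, and so did IFITM1 (1.10 ± 0.52, adjusted p = 0.159), which ranged from -1.65 in BL41 to 4.34 in Raji. IFITM3 (0.12 ± 0.31, adjusted p = 0.836) and IFITM2 (adjusted p = 0.999), which like IFITM1 hinder the entry of viruses, did not pass either, and as the genes of this family are nearly identical their signals may be mixed.

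BST2, which tethers virus particles to the cell, was bright in both groups (15.19 and 15.56) and did not pass (adjusted p = 0.205). RSAD2 (viperin) had a dim element, with means of 8.82 and 8.66, below the array median in both groups (adjusted p = 0.788). SAMD9 (0.50), EPSTI1 (0.85), IFI44L (0.50) and IFI35 (0.03) had adjusted p between 0.170 and 0.966. The untreated mean was below the array median for 13 of the 33 genes, among them 7 of the 11 that rose. For 6 the treated mean was below it too, among them HERC5 and DHX58, which were called higher.

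Promoter sequences are shown for IFI6, IFIT1, ISG15 and IFI27, which rose, and for ISG20, which fell in every line, so that the ISRE can be compared between them. They are RefSeq windows of GRCh38.p14 from 250 bases before to 50 after an annotated start, written 5′ to 3′ on the strand of the gene, with matches to the ISRE core in capitals. The core was searched as GAAANNGAAA on both strands, where it reads TTTCNNTTTC. The windows are chr1:27672143-27672442 (minus strand) for IFI6, chr10:89392373-89392672 (plus) for IFIT1, chr1:1013247-1013546 (plus) for ISG15, chr14:94110486-94110785 (plus) for IFI27 and chr15:88638766-88639065 (plus) for ISG20.
IFI6: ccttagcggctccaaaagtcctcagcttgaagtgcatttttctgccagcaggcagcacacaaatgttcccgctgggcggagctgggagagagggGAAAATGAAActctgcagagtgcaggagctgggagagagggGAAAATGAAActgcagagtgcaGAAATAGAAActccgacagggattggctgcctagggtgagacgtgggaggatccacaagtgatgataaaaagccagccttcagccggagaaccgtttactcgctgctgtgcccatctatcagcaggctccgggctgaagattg
IFIT1: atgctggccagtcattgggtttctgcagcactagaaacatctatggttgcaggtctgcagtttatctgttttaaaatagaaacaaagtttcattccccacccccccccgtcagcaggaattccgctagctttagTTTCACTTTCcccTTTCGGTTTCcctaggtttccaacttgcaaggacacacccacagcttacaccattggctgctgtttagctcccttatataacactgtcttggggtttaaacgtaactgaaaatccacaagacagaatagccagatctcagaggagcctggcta
ISG15: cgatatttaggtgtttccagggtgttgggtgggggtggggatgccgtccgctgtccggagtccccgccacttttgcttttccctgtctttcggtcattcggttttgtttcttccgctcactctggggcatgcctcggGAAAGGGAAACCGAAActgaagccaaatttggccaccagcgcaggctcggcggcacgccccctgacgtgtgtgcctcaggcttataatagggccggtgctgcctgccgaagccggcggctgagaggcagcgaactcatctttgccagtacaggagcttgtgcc
IFI27: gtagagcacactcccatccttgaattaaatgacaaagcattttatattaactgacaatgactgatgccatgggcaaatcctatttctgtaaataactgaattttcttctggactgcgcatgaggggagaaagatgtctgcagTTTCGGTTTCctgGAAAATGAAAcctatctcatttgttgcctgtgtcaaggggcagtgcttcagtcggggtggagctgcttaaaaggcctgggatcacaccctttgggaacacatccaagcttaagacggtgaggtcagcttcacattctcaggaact
ISG20: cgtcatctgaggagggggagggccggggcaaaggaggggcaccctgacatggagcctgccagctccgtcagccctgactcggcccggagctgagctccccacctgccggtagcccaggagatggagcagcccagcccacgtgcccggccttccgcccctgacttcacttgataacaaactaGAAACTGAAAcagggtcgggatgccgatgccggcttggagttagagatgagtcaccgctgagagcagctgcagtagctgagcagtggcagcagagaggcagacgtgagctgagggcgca

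IFI6 held 3 matches, IFIT1, ISG15 and IFI27 held 2 each, and ISG20 held 1; the 2 in ISG15 overlap. A window was found for 25 of the 33 genes (32 windows, since some genes have several starts), and IFIT2, IFITM2, MX2, OAS2, OASL, IRF7, DHX58 and USP18 had none in the table. The core was present in 23 of the 32 windows (71.9%), against 3.57% of 35116 windows of all genes. It was in 6 of 7 genes that rose, the exception being XAF1, in ISG20, and in 12 of 17 that did not pass the test, so its presence did not separate these classes. The 32 windows held a median of 7 CpG dinucleotides, the sites of DNA methylation, against 14 over all windows, and ranged from 0 in IFI44 to 45 at an RSAD2 start. A match is a description of the letters, and methylation and binding were not measured by these arrays.

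The lines differed strongly in how much of the list moved. In Raji 26 of 33 genes were at least 2-fold higher after aza/TSA and 1 was lower by as much (14.2% of elements were), and the median difference over the 33 genes was 2.15; 13.4% of all elements were at least 2-fold higher in that line. SC-1 followed with 16 genes (14.4% of elements, median 0.80), HLY-1 with 15 (15.7%, median 0.96) and Ramos with 15 (15.7%, median 0.88). In Ocily3 (11 genes, 14.0% of elements), Sudhl6 (10 genes, 14.8%), Sudhl4 (10 genes, 16.4%) and Ocily10 (11 genes, 16.9%) the median lay between 0.13 and 0.58. K422 (11 genes, 12.0%), ROS-50 (9 genes, 16.1%) and BL41 (10 genes, 17.0%) had medians of -0.04, -0.15 and -0.19. In every line the share of the list that was at least 2-fold higher exceeded that of all elements, and at least 1 gene was 2-fold lower. These are single pairs of cultures, so no test was made between lines, and the lines were not grouped by their response.

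What set Raji apart was the breadth of the response. The 11 genes called higher were all at least 2-fold higher in Raji, and 6 to 10 of them in each other line. The calls were made with Raji among the lines, so these counts are partly built in. The DHX58 call was lost without Raji (limma, adjusted p = 0.0754). The same share was not taken for all elements called higher. Of the 20 genes that did not pass the test across lines, 15 were at least 2-fold higher in Raji, against 2 to 6 in each other line. Raji had the largest difference of the 11 lines for 15 of the 33 genes (for 7.23% of all elements), among them OASL (7.67), IFIT1 (7.12), IFI6 (7.06), IRF7 (5.86) and RIGI (4.17). The genes that were lower in Raji were RSAD2 (-1.88), OAS3 (-0.91) and ISG20 (-0.47).

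K422 was high before treatment. Its untreated array had the highest level of the 11 lines for 14 of the 33 genes (for 8.37% of all elements), and the median level of the list was 12.83 before and 12.77 after aza/TSA, against 10.68 and 13.93 in Raji. ROS-50 and BL41, whose median differences were negative like that of K422, had lower untreated medians of 9.73 and 10.53. MX1 was at 15.75 in untreated K422 and at 8.42 to 13.91 in the other lines, and IFI44 at 14.85 against 6.66 to 10.05. Both were lower in K422 after treatment, by 1.70 and 1.14, whereas IFI27, also highest in untreated K422 (15.50), was higher by 4.75. The untreated level is part of each of these differences. In BL41, 7 of the 33 genes were at least 2-fold lower, near the share of all elements (18.0%), and Ocily3 also had 7 (14.6% of elements). The largest of these decreases in BL41 were OAS1 by 4.43, IFIH1 by 3.26 and IFIT3 by 2.33, while IRF7 and OASL were higher by 4.09 and 3.89. The second element of OAS1 had no difference below -2.25 in any line. In ROS-50 the levels of IRF7 and IFI6 were higher by 4.14 and 3.15, but OASL, IFI27 and ISG15 were not.

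**Figure D3:**
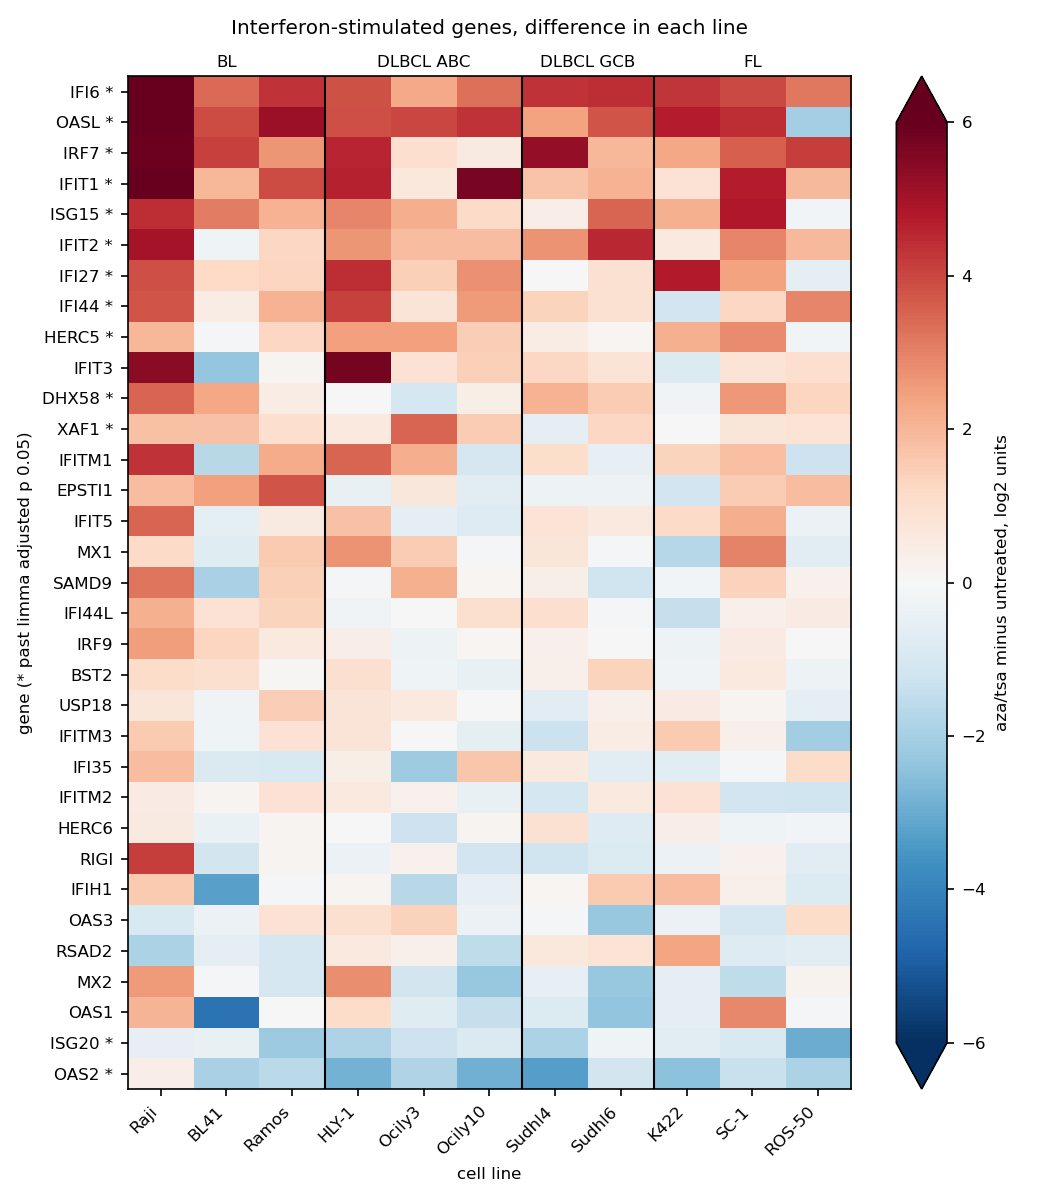
Difference between the aza/TSA-treated and the untreated culture (log2, colour from -6 to 6) for 33 interferon-stimulated genes (rows, by mean difference) in 11 lines (columns, by lymphoma type), with an asterisk on genes past the limma threshold and values beyond 6 in the end colour. Raji is higher for most rows, the IFI6 row is higher in every line, the ISG20 row lower in every line, and the OAS2 row lower in all lines but Raji.

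**Figure D4:**
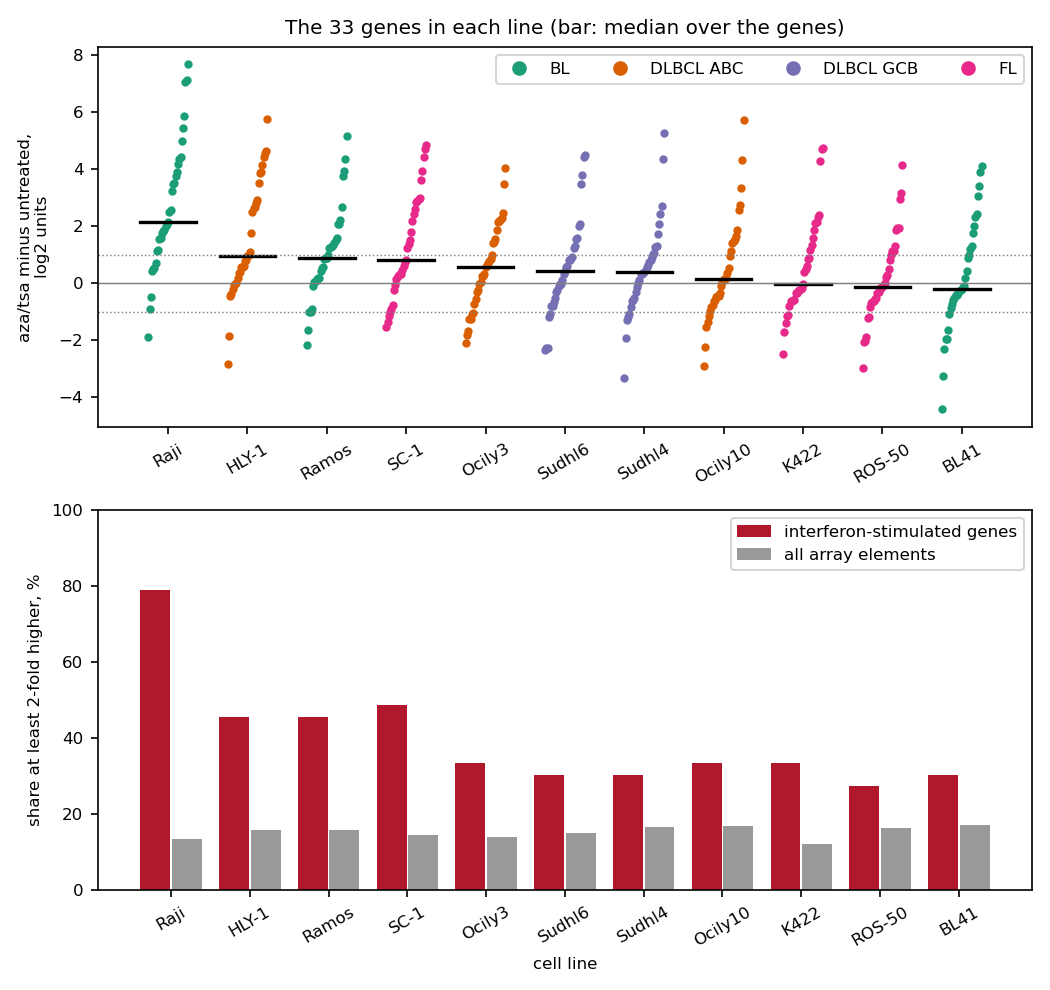
Top: differences of the 33 genes (log2) in each line with their median, coloured by lymphoma type, with dotted lines at a 2-fold difference, ordered by the median from Raji (2.15) to BL41 (-0.19). Bottom: percentage of the 33 genes and of all 32878 elements that were at least 2-fold higher in that line.

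Across the 11 lines the differences of these genes varied more than those of other elements and partly together. The median SD of the difference was 1.39 for the 33 genes and 0.82 over all elements, and 17 genes were at least 2-fold higher in some line and at least 2-fold lower in another (40.3% of all elements were). As a description over 11 points, which share the arrays and their scaling, the median Pearson r between the differences of any 2 genes was 0.27, with 407 of 528 pairs above 0, against a median of 0.00 among all named genes. Without Raji the median was 0.11, with 324 of 528 pairs above 0. The highest pair was IFITM3 and OASL (r = 0.85), followed by IFI6 with IFIT5 and IFI44 with IFIT3 (both 0.82), and the lowest was IFI44L and RSAD2 (-0.86). IFIT5 had the highest median r with the other genes (0.53) and RSAD2 the lowest (-0.19). Levels correlated by a median of 0.25 in untreated and 0.42 in treated cultures.

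DLBCL ABC cells are known for their dependence on the interferon regulatory factor IRF4, and the 3 DLBCL ABC lines were compared with the other 8. In untreated cultures none of the 33 genes passed limma's threshold in either direction (0.313% of elements were called higher and 0.158% lower). An unadjusted p under 0.05 was reached by 2 genes, about as many as chance gives among 33. These were IFIT5, which was 1.55 higher in the DLBCL ABC lines, and IRF9, which was 1.08 higher (smallest adjusted p of the list 0.371). IFIT5 was at 12.70 in Ocily10 and 11.43 in Ocily3 but at 9.39 in HLY-1, and it passed when HLY-1 was left out (2.44 ± 0.45, adjusted p = 0.0254). Ocily3 and Ocily10 are then the only DLBCL ABC lines and also the only lines in IMDM, so that type and medium cannot be told apart. Outside the 33 genes, some other interferon-induced genes did pass in untreated cultures of all lines. GBP2 was 4.47 higher in the DLBCL ABC lines (limma, adjusted p = 0.00133), GBP1 4.69 (0.00584) and APOL1 3.04 (0.00750). The response to aza/TSA did not differ past the threshold for any of the 33 genes (0.00608% of elements in each direction). DHX58 was the 1 gene with an unadjusted p under 0.05, no more than chance gives among 33. Its difference was 1.93 smaller in the DLBCL ABC lines (SE 0.68, adjusted p = 0.516). A p above the threshold with 3 lines against 8 does not show that the types respond alike.

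The rest of the interferon pathway, 122 measured genes of 132 listed, held 12 that rose (9.84%) and 19 that fell (15.6%), close to the 11.2% and 12.4% of all elements, with 91 that did not pass the test. Of 21 interferon genes none rose and IFNA4 fell (-0.91 ± 0.19, adjusted p = 0.00328), with the reserve that elements for the IFNA genes may read their near-identical copies. IFNB1 was at 10.52 untreated and 10.60 treated (0.07 ± 0.16, adjusted p = 0.802). Its untreated level was 12.35 to 13.09 in Sudhl4, HLY-1 and Ocily10, the lines whose raw signals tended to be dimmer, and 9.38 to 10.71 in the others; the part of the raw signal in this was not tested.

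At the receptors, IFNGR2 and IFNGR1, the chains of the receptor for interferon gamma, moved in opposite directions (-2.38 ± 0.28, adjusted p = 3.27e-05, and 0.97 ± 0.20, adjusted p = 0.00244). The kinase TYK2 rose by 0.85, the type I receptor chain IFNAR2 fell by 0.65 (adjusted p = 0.00593), and IFNAR1, its partner, had a difference of -0.59 (adjusted p = 0.0572). Among the transcription factors STAT3, read by the brightest of its 3 elements, rose by 2.10 ± 0.26 (adjusted p = 5.06e-05). IRF2, a repressor of interferon responses, fell by 1.48 (adjusted p = 0.0206), and IRF1 had a difference of -0.06 (adjusted p = 0.915). Where a gene of these pathway lists has several elements, as STAT3 and TICAM1 do, the brightest alone is given.

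Of 19 further sensors and adaptors of nucleic acid detection, none rose (11.2% of all elements did) and 6 fell (31.6%, against 12.4% of all elements). IFI16, a sensor of DNA, fell by 2.49 ± 0.32 and IRAK1, a kinase below the Toll-like receptors, by 2.09 ± 0.38; MYD88, IKBKE, TICAM1 and UNC93B1 were the others. Of 10 negative regulators and enzymes of ISG15 conjugation, 3 fell (30%) and none rose, with PTPN6 (-1.95 ± 0.49) and NLRX1 (-1.28 ± 0.36) the most. Of 54 other interferon-induced genes 9 rose (16.7%) and 6 fell (11.1%), also near the shares of all elements. The chemokine CXCL11 had the largest difference, with a median level of 8.63 untreated and 11.99 treated, the highest levels being 9.46 and 14.52, a mean difference of 3.17 ± 0.49 (adjusted p = 2.91e-04). The guanylate-binding protein GBP2 followed (1.93 ± 0.42, adjusted p = 0.00363).

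**Figure D5:**
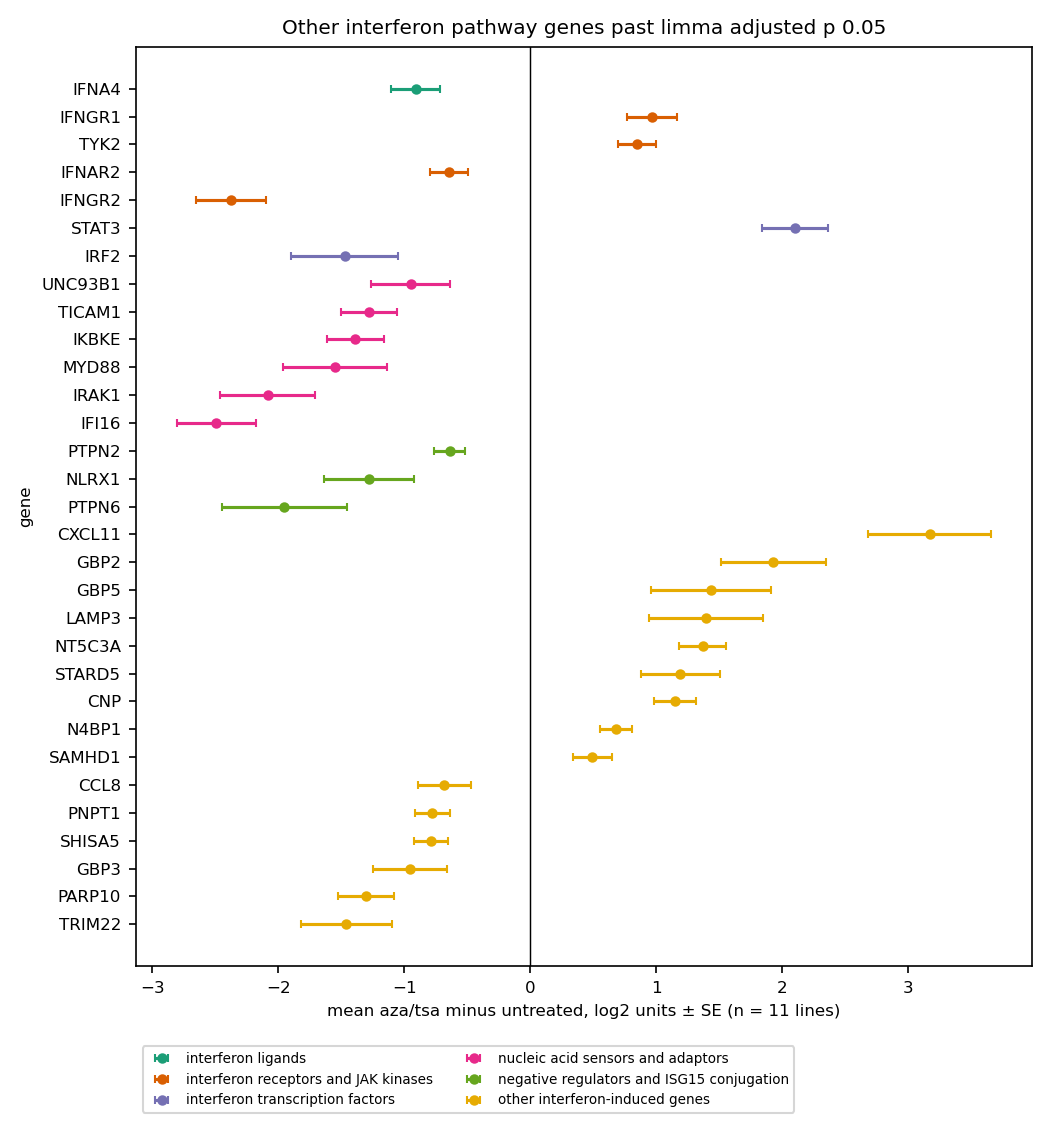
Mean difference between aza/TSA-treated and untreated cultures (log2, ± SE over 11 lines) for the 31 of 122 measured genes of the wider interferon pathway that passed the limma threshold, grouped by role. CXCL11 has the largest increase (3.17) and IFI16 the largest decrease (-2.49). None of the 19 further sensors and adaptors or the 10 negative regulators and enzymes of ISG15 conjugation rose, where 11.2% of all elements did.

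Markers of other cell types were read beside these changes, with 11.2% of all elements called higher and 12.4% lower. None of 12 T and NK cell markers and none of 10 markers of myeloid and plasmacytoid dendritic cells, which are strong producers of interferon, passed the test; the mean level of the latter list was 9.06 to 10.1 per untreated and 9.25 to 11.9 per treated array. Of 9 B-cell markers 7 fell (77.8%) and none rose (mean level 11.1 to 15.1 untreated, 9.90 to 13.3 treated). Of 7 epithelial and stromal markers 4 rose (57.1%), CDH1, EPCAM, COL1A2 and KRT8, and none fell (8.42 to 9.90 untreated, 9.07 to 11.1 treated). The part of these markers in the change of the interferon-stimulated genes was not tested. The cultures are established B-cell lymphoma lines, and bulk RNA does not tell whether all cells of a culture changed or only some.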

How the data were processed

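The authors deposited linear intensity values read from Applied Biosystems arrays, and a table of log2 values made by quantile normalization of these signals between arrays. Here log2 values were recomputed from the deposited intensity values and equalled the table to a largest difference of 5.0e-09. Image analysis settings were not given. All 22 columns were mapped to a line and a condition (0 unmapped). Elements were named through the platform annotation (17073 elements with 1 symbol, 139 with several, 15666 unnamed here), and outdated symbols were replaced through the RefSeq gene table of GRCh38.p14. No filter on dim elements was applied.

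Elements were tested with limma (version 3.58.1, R version 4.3.3; moderated statistics, two-sided, Benjamini-Hochberg over 32878 elements), with the cell line as a block. The treated and untreated array of a line were paired, as both come from that line. Their deviations from the group means had correlations of 0.361 to 0.585, and those of arrays from different lines reached 0.180. DLBCL ABC lines were compared with the others on untreated levels and on the 11 differences. Lymphoma types come from the study's methods.

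All members are accounted for. Values in detail are given for the 6 members with the largest increase and the 3 with the largest decrease past the threshold (only 2 passed) and for the 4 with the largest SD of the difference; other values that single out a line were chosen after they were seen. From each pathway list the 2 largest changes past the threshold are given, with IRF1, IFNB1, IFNAR1 and IFNAR2. The members, lists, tests and alternatives were chosen with earlier results of these data known. The scripts were tested on simulated data. Alternatives were median scaling, no normalization, a floor at the 25th percentile, only detected elements (brighter than the array median in 6 or more of the arrays), a variance trend, no block, an exact sign-flip test, all elements of a gene averaged, RPMI medium only, each line left out in turn, and HLY-1, Ocily10 and Sudhl4 left out together.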

Additional observations from a re-analysis of the deposited data

Results flagged for a closer look

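In the 8 lines other than DLBCL ABC, single cultures lay far from the rest by Dixon's criterion in 7 of 66 groups of values tested (untreated levels and differences of the 33 genes). For independent groups chance gives about 1 in 20. These groups share the same arrays and are not independent, and all those flagged come from K422 or Raji. In untreated K422 the log2 level was 15.50 for IFI27 (next line 13.02), 14.85 for IFI44 (10.05), 13.04 for IFIT1 (10.60) and 15.75 for MX1 (10.89). In Raji the difference after aza/TSA was 7.06 for IFI6 (next line 4.41), 5.43 for IFIT3 (1.26) and 4.17 for RIGI (0.25). For IFIT3 the DLBCL ABC line HLY-1, which is outside these 8 lines, had 5.74. Each is a value of 1 culture or 1 pair of cultures.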

How the results depend on the processing

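The number of interferon-stimulated genes called higher was 10 to 12 with each line left out in turn and that of genes called lower was 2 throughout; the counts of genes at least 2-fold higher and lower in 6 lines were 10 to 11 and 1, and the median difference 0.33 to 0.69. Without the block for the cell line 1 gene was called lower, and ISG20 (adjusted p = 0.209), IFI27 (0.0528), IFI44 (0.197) and DHX58 (0.0778) lost their calls. The count of genes 2-fold lower in 6 lines was 2 under median scaling, 4 at 1.5-fold and 3 in at least 5 lines; that of genes higher was 6 at 3-fold. IFI44 did not pass with a floor on dim values (1.10, adjusted p = 0.0628), nor DHX58 in the exact sign-flip permutation test (adjusted p = 0.0764). IFI44L passed without K422 (0.69, adjusted p = 0.0465) and USP18 as the mean over its elements (1.08, adjusted p = 0.00621). In untreated DLBCL ABC lines 0 to 1 gene was called higher with a line left out. The means of IFI35, IFITM3 and BST2, none of them called, changed sign under median scaling, as did IFI35 without normalization. The causes were not tested. Only detected elements left 29 of the 33 genes, and without HLY-1, Ocily10 and Sudhl4 a single DLBCL ABC line remained, which was assumed to vary like the other lines.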

Other observations

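The other interferon-induced genes that passed the test included guanylate-binding proteins other than GBP2. GBP5 rose by 1.44 ± 0.48 (limma, adjusted p = 0.0425) and GBP3 fell by 0.95 (adjusted p = 0.0295). NT5C3A, a nucleotidase, CNP, a phosphodiesterase, and N4BP1, a ribonuclease, were higher in 11 of 11 lines, by 1.37 ± 0.19, 1.15 ± 0.16 and 0.68 ± 0.13. LAMP3, STARD5 and SAMHD1 rose by 1.39, 1.19 and 0.49. PARP10, PNPT1 and SHISA5 were lower in every line, with mean differences of -1.30, -0.78 and -0.79, and TRIM22 (-1.46) and CCL8 (-0.68) fell as well.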
